A study of Mus musculus with 6 samples.

Results

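Cholesterol synthesis and its control by SREBP were examined in primary mouse embryonic fibroblasts (MEFs) that had or had not lost Kansl1, through 32 genes picked by name. These were 18 enzymes that lead from acetyl-CoA to cholesterol, 7 genes of the SREBP system, and 7 genes of sterol transport, storage, efflux and LXR control. All 32 were among the 26898 genes of the deposited table. A group mean of at least 1 TPM (a level in which reads are divided by gene length and scaled to 1 total per library) in either group was required for testing, and 31 of the 32 were among the 14799 genes that reached it. Nr1h3 did not, and Abcg1 reached it in WT alone.

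All MEFs came from C57BL/6 mice and were sequenced at passage 3 as bulk RNA, 3 samples per group from separate mice. WT cells (WT 4, 5 and 8) were Kansl1 fl/fl, with both copies of the gene flanked by recombination sites and otherwise intact. KO cells (KO 3, 7 and 10) were Kansl1 fl/fl with CAG-cre, a tamoxifen-inducible Cre recombinase under a promoter active in nearly all cells. The embryos were taken at E12.5, and tamoxifen (1 μM, 48 h) was given to the cells of both groups. Cells with Cre and intact Kansl1 were not analysed here, so loss of Kansl1 and the presence of Cre cannot be told apart. Kansl1 encodes a subunit of the NSL complex, which acetylates histones at promoters. It was expressed at 28.5, 26.7 and 24.4 TPM in WT 4, 5 and 8 and at 13.7, 15.8 and 14.4 TPM in KO 3, 7 and 10. The KO mean was 55.1% of WT, counted over all exons of the gene, including any that the deletion leaves in place.

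Animal cells make cholesterol by joining acetyl units into mevalonate, turning mevalonate into isoprene units, linking these into squalene, closing squalene into lanosterol, and trimming lanosterol to cholesterol. The transcription factors SREBP-1 and SREBP-2 are made as membrane proteins of the endoplasmic reticulum, where SCAP escorts them and the INSIG proteins hold them back while sterol is plentiful. When sterol falls, SCAP carries them to the Golgi, 2 proteases release the active part, and genes of synthesis and uptake are transcribed. The LXR receptors answer to oxidised sterols and act in the opposite sense, switching on efflux. Cultured fibroblasts take sterol from serum and also make their own.

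The recovered depth was 22812595 to 24263082 reads in the WT samples and 17655495 to 27718259 reads in the KO samples, lowest in KO 3 and highest in KO 7, and 13679 to 14268 genes reached 1 TPM in a sample. The most abundant RNA, Gm23935, took 15.5% to 25.6% of TPM. KO 7 alone had Xist (117.4 TPM) and 0 TPM of Ddx3y, Uty, Kdm5d or Eif2s3y, whereas the other 5 samples had these Y-linked genes and Xist at 0.0230 TPM or less, so the KO group mixed female and male cells and the WT group did not. Of the fibroblast markers, Col1a1 was at 3080 to 5809 TPM and Vim at 2212 to 2522 TPM. Dcn, Lum and Pdgfra were low, at 1.51 to 11.3 TPM over the 6 samples. Of the 10, 0 were called by limma (1.64% of all tested genes higher and 9.03% lower) and 0 by voom (2.93% and 14.5%). Lum was higher at an unadjusted p under 0.05, as were 12.2% of all tested genes (log2 fold change 0.89, 95% interval 0.16 to 1.62). A positive log2 fold change was seen in 5 of the 10, and in 42.6% of all tested genes. Of 10 macrophage markers, 6 were tested, 5 had all KO samples above WT (13.3% of all tested genes) and 1 was called higher (1.64% of all tested genes), with Lyz2 at 20.6 to 23.8 TPM in WT and 53.1 to 110.8 TPM in KO. Adgre1 (mean 0.75 TPM in WT and 2.05 TPM in KO) and Mrc1 (0.49 and 1.79 TPM) reached the 1 TPM filter in KO alone. The filter therefore favoured their place among the 5. The summed macrophage list ranged from 34.0 to 38.2 TPM in WT and from 70.9 to 143.2 TPM in KO. The untested markers were low, with Ptprc at 0.257 TPM or less, Fcgr1 at 0.649 TPM or less and Aif1 and Cd163 at 0.270 TPM or less. Aif1 and Cd163 each had a 0 in at least 1 library of each group. The KO means of Ptprc, Fcgr1, Aif1 and Cd163 were above their WT means, on 42 reads or fewer per sample. Of 13 tested endothelial, epithelial, neural, muscle and adipocyte markers, 0 were called by limma or by voom, and 5 (Kdr, Krt8, Krt18, Tubb3 and Cebpa) were higher at an unadjusted p under 0.05, as were 12.2% of all tested genes. The summed epithelial list came to 65.5 to 72.2 TPM in WT and 80.7 to 95.3 TPM in KO. In bulk RNA, fewer cells of a type and less RNA per cell cannot be told apart. The part of the macrophage and epithelial signal, the mixed sexes and the depth in the results that follow was not tested, except where a value without KO 7 is given.

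At the thresholds used here (a Benjamini-Hochberg adjusted p-value under 0.005 over all 14799 genes and a log2 fold change beyond 0.5 in size, in limma on log2(TPM + 1)), 2 of the 31 tested genes rose in Kansl1 KO MEFs, Cyp51 and Fdft1, against 1.64% of all tested genes. A single gene fell, Ebp, against 9.03% of all tested genes. With 1 sample left out, Ebp was still called, and neither Cyp51 nor Fdft1 was called in any of the 6 fits, in which 0 to 1 genes were higher. At an adjusted p-value under 0.05 with no fold threshold, a setting added after the data were seen, 8 were higher (25.8%, with 7.14% of all tested genes) and 3 were lower (9.68%, with 20.7% of all tested genes). The 8 were Hmgcs1, Mvd, Idi1, Fdft1, Sqle, Cyp51, Hsd17b7 and Insig1, and the 3 were Ebp, Insig2 and Nr1h2. With 1 sample left out, 4 to 8 were higher and 2 to 3 lower by that rule, with 4.06% to 7.77% and 14.3% to 19.9% of all tested genes. Without WT 8 (4.50% of all tested genes higher) and without KO 10 (4.06%), 4 were higher, namely Cyp51, Fdft1, Idi1 and Sqle. Another 1, Hsd17b7, made 5 without KO 7 (4.15%). The count was 6 without WT 4 (7.25%), 7 without WT 5 (5.26%) and 8 without KO 3 (7.77%). Nr1h2 was lost without WT 5 and without KO 10. In 13 genes the 3 KO samples all lay above the 3 WT samples (41.9%, with 13.3% of all tested genes), and in 3 they all lay below (9.68%, with 29.9% of all tested genes). The median log2 fold change was 0.08 for the 31 genes and 0.24 for the 18 enzymes, while that of all tested genes was -0.07. Of the 18 enzymes 14 had a positive log2 fold change, as had 42.6% of all tested genes. The shares describe genes that were selected by function and do not act independently of each other.

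**Figure D1:**
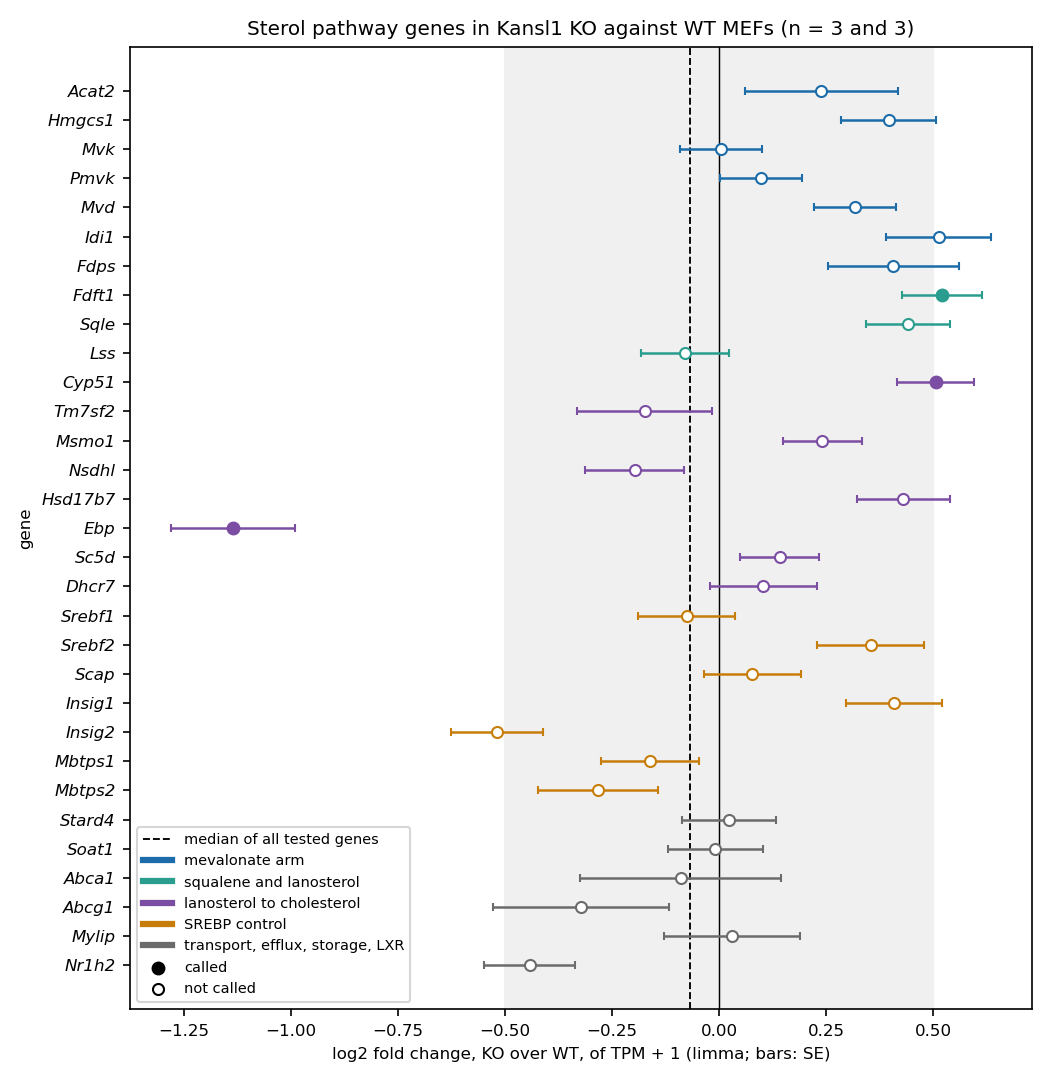
Log2 fold change of KO over WT on the TPM + 1 scale (x axis) for each of the 31 tested genes (y axis, in pathway order and coloured by role), from limma with n = 3 samples per group. Bars are 1 SE, filled points were called, the shaded band is the range within 0.5 of 0, and the dashed line is the median of all tested genes at -0.07. Most mevalonate and squalene genes lie between 0.24 and 0.52, and Ebp lies apart at -1.14.

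The promoters of 6 genes are shown so that genes of different roles and directions can be compared in sequence, and they are a choice among the genes with windows, not the 6 with the largest differences. They are those of Hmgcs1, Idi1 and Cyp51 among the enzymes with all KO samples above WT, of Ebp, the enzyme that fell, and of Srebf2 and Insig1, the factor and its anchor. Each window runs from 250 bases before to 50 bases after the RefSeq start site (GRCm38.p6, the assembly of mm10) and is written 5′ to 3′ on the strand of the gene. Capitals mark the NF-Y box, CCAAT or its reverse ATTGG, and the core of the sterol regulatory element (SRE), TCACNCCA on either strand. NF-Y is a constitutive factor that works beside SREBP at many sterol promoters. The windows are chr13:119690101-119690400 (plus strand) for Hmgcs1, chr13:8885356-8885655 (plus strand) for Idi1, chr5:4104648-4104947 (minus strand) for Cyp51, chrX:8193463-8193762 (minus strand) for Ebp, chr15:82147019-82147318 (plus strand) for Srebf2 and chr5:28071162-28071461 (plus strand) for Insig1.
Hmgcs1: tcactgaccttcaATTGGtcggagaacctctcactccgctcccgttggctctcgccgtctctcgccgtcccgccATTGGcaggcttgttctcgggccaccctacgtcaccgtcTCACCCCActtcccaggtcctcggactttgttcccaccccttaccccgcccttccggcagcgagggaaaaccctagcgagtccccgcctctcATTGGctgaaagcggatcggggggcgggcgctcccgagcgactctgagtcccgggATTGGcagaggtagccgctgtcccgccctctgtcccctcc
Idi1: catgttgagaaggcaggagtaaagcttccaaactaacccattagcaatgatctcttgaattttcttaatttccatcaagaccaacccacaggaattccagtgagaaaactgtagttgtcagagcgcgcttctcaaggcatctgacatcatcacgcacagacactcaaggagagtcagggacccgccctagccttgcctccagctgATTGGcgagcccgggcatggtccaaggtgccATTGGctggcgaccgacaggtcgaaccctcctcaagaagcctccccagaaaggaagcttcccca
Cyp51: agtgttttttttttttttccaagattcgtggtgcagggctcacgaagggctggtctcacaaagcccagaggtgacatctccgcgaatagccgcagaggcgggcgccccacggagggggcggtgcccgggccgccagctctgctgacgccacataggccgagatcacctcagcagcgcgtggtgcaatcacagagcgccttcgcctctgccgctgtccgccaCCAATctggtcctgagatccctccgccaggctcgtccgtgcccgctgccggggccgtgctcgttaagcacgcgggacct
Ebp: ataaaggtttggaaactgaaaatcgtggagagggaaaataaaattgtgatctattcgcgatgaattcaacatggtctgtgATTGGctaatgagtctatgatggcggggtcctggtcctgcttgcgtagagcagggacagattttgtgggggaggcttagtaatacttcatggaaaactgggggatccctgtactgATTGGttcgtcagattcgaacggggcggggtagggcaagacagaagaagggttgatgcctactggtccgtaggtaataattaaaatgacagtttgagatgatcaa
Srebf2: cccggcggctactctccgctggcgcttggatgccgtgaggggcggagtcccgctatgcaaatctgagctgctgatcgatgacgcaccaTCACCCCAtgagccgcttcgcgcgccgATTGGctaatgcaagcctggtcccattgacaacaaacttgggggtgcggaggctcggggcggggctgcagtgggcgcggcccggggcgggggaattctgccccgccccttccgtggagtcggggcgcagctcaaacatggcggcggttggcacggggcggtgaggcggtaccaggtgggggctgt
Insig1: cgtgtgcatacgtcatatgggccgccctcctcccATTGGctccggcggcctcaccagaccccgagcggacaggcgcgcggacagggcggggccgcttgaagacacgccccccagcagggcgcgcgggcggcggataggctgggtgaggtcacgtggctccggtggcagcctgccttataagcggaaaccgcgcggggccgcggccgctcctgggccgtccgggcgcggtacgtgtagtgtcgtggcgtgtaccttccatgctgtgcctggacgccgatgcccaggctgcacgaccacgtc

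Hmgcs1 and Srebf2 each held 1 SRE core, with first bases at -137 and -162 from the start site, and both also held NF-Y boxes. Ebp held 2 NF-Y boxes, with first bases at -170 and -55, and Idi1 held 2, at -45 and -14, so the gene that fell and a gene that was higher carried the same letters. RefSeq windows were matched for 27 of the 32 genes, and none was used for Stard4, Fdft1, Fdps, Sqle and Abcg1. The NF-Y box was found in 20 of the 27 genes (74.1%), compared with 43.3% of 9565 tested genes with a window and 37.4% of all 32851 windows. The SRE core was found in 3 genes, Hmgcs1, Msmo1 and Srebf2 (11.1%), compared with 4.37% of tested genes and 4.36% of all windows. The GC box (GGGCGG, both strands) stood in 23 genes (85.2%), with 70.2% of tested genes and 35.7% of all windows, and the E-box (CACGTG) in 6 (22.2%), with 11.9% and 7.15%. The median GC content was 62.3% in the windows of these genes and 61% in those of tested genes. Genes with several start sites had more windows in which a motif could occur, none of these shares was tested, and a match is not evidence of binding.

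Of the 7 genes of the mevalonate arm, 0 passed both limma thresholds (4 at an unadjusted p under 0.05, all higher, with 12.2% of all tested genes, and Idi1 alone with voom, with 2.93%). In 5 of them all KO samples lay above all WT samples, as in 13.3% of all tested genes, and in none below, with log2 fold changes from 0.10 in Pmvk to 0.51 in Idi1. Hmgcs1, the cytosolic HMG-CoA synthase that feeds the pathway, was at 84.7, 104.3 and 83.4 TPM in WT 4, 5 and 8 and at 114.0, 124.6 and 119.0 TPM in KO 3, 7 and 10. The groups did not overlap, and WT 5 was the WT sample nearest the KO range. The log2 fold change of Hmgcs1 was 0.40 (SE 0.11) with a limma Benjamini-Hochberg adjusted p of 0.0255. Mvd, which decarboxylates mevalonate diphosphate, was at 35.8, 36.9 and 36.3 TPM in WT and at 44.2, 48.7 and 43.7 TPM in KO. Its WT samples lay close together and below every KO sample, and the log2 fold change was 0.32 (SE 0.09; limma adjusted p 0.0335).

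Idi1, the isomerase that interconverts the 2 isoprene units, was at 119.2, 96.5 and 86.7 TPM in WT 4, 5 and 8 and at 146.2, 138.5 and 144.5 TPM in KO. The groups did not overlap, and WT 4 was the highest WT sample. The log2 fold change of Idi1 was 0.51 (SE 0.12) with a limma adjusted p of 0.0128, past the fold threshold and short of the p threshold. Without WT 4 it passed both, at 0.64 on the log2 scale (limma adjusted p 0.00246). Over 684 bases Idi1 is 100% identical to the pseudogene Gm13502, listed at 108.7 to 150.8 TPM in WT and 164.6 to 184.4 TPM in KO, so reads of the gene and the copy cannot be told apart there. Fdps, the farnesyl diphosphate synthase at the branch to sterols and prenyl groups, was at 4.49, 3.17 and 3.13 TPM in WT and at 4.87, 5.25 and 5.00 TPM in KO. Its log2 fold change was 0.41 (SE 0.15; limma adjusted p 0.0768), and 1124 of its 4208 exon bases are shared with the same-strand gene Gm43738, which with a near-identical pseudogene leaves its level uncertain.

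Of the remaining mevalonate genes, Pmvk and Mvk differed little and Acat2 was imprecise. Pmvk, the phosphomevalonate kinase, was at 25.4 to 27.5 TPM in WT and 27.8 to 29.5 TPM in KO, with a log2 fold change of 0.10 (95% interval -0.12 to 0.31). Mvk, mevalonate kinase, had a log2 fold change of 0.00 with a 95% interval from -0.21 to 0.22. Acat2, the cytosolic thiolase of the first step, was at 39.3, 67.2 and 63.2 TPM in WT 4, 5 and 8 and at 65.0 to 65.6 TPM in all KO samples. WT 4 was the sole low sample, and the groups overlapped. The log2 fold change of Acat2 was 0.24 (95% interval -0.16 to 0.64), 0.00 without WT 4 and 0.38 without WT 5. Acat2 shares 97.7% of 1477 bases with Acat3. It also shares 98.7% of 445 bases with Tcp1, which was at 185.6 to 231.2 TPM over the 6 samples. Summed over the 7 genes, the mevalonate arm came to 328.6 to 366.6 TPM in WT and 432.7 to 443.3 TPM in KO.

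In the squalene steps, Fdft1 rose. This gene (ENSMUSG00000021273.10, chr14:63145150-63179578, minus strand) encodes squalene synthase, the first enzyme committed to sterols, and was at 53.9, 54.2 and 49.5 TPM in WT 4, 5 and 8 and at 74.7, 79.2 and 73.5 TPM in KO 3, 7 and 10. The KO samples lay apart from WT by more than the whole spread of either group. The mean was 52.6 ± 2.63 TPM in WT and 75.8 ± 2.99 TPM in KO (SD, n = 3 each), 1.44-fold. On the log2 scale the difference was 0.52 (SE 0.09; limma adjusted p 0.00323). Of its 4227 exon bases, 774 lie opposite exons of Ctsb, which was at 230.8 to 240.9 TPM in WT and 244.1 to 277.6 TPM in KO, and the library kit does not mark strand. Sqle, the squalene epoxidase that controls flux after squalene, was at 55.2, 60.5 and 53.7 TPM in WT and at 73.0, 81.9 and 76.0 TPM in KO. The groups did not overlap, and the log2 fold change of 0.44 (SE 0.10) had a limma adjusted p of 0.00913. Lss, which closes the ring to give lanosterol, went with neither: it was at 14.96, 16.01 and 15.10 TPM in WT and at 13.6, 15.1 and 14.8 TPM in KO, with a log2 fold change of -0.08 (95% interval -0.31 to 0.15, and 0.003 with median-of-ratios scaling). The ratio of Fdft1 to Lss within a library was 3.28 to 3.60 in WT and 4.97 to 5.49 in KO.

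**Figure D2:**
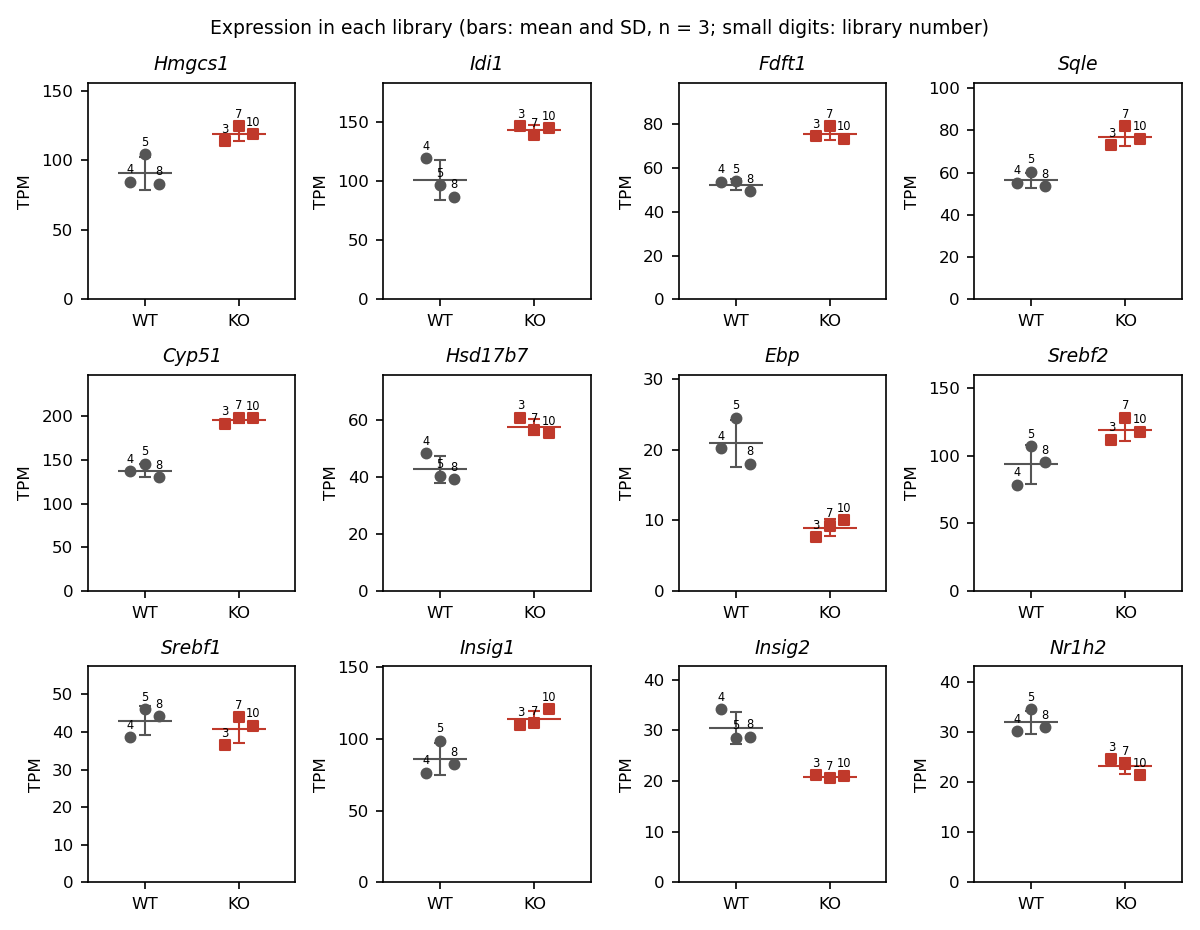
Expression in TPM (y axis, from 0) of 12 genes in each of the 3 WT (grey circles) and 3 KO (red squares) samples, with the mean and SD as bars and the sample number beside each point. The groups do not overlap in any panel except Srebf1, and Ebp, Insig2 and Nr1h2 are the panels in which the KO samples are lower. The 12 panels are a choice among the 32 genes. Of the 31 tested, 41.9% had all KO samples above WT and 9.68% below, with 13.3% and 29.9% of all tested genes.

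The conversion of lanosterol to cholesterol held both a gene that rose and the gene that fell. Cyp51 (ENSMUSG00000001467.5, chr5:4081145-4104746, minus strand), lanosterol demethylase, had the highest WT level of the 32 genes. It was at 137.1, 145.9 and 130.5 TPM in WT 4, 5 and 8 and at 191.7, 198.3 and 197.7 TPM in KO 3, 7 and 10. The KO samples sat close together and above every WT sample. The mean was 137.8 ± 7.77 TPM in WT and 195.9 ± 3.62 TPM in KO (SD, n = 3 each), 1.42-fold. On the log2 scale the difference was 0.51 (SE 0.09; limma adjusted p 0.00309). Cyp51 and Fdft1 stood close to the threshold: with any 1 of the 6 samples left out neither was called, at limma adjusted p-values of 0.00641 to 0.0224 for Cyp51 and 0.00588 to 0.0172 for Fdft1, while their log2 fold changes stayed between 0.47 and 0.55. They were also not called with every gene of the table tested or when limma was run with no variance trend, at adjusted p-values of at most 0.0105 and 0.00960.

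Ebp (ENSMUSG00000031168.14, chrX:8185329-8193512, minus strand) encodes the sterol isomerase that moves a double bond in the ring late in the pathway, and it fell. It was at 20.2, 24.5 and 18.03 TPM in WT 4, 5 and 8 and at 7.62, 9.25 and 9.99 TPM in KO 3, 7 and 10. Every KO sample was below the lowest WT sample, and these values stood on 378 to 497 reads in WT and 128 to 207 reads in KO. The mean was 20.9 ± 3.31 TPM in WT and 8.95 ± 1.21 TPM in KO (SD, n = 3 each), 42.8% of WT. On the log2 scale the difference was -1.14 (SE 0.14, 95% interval -1.46 to -0.81; limma adjusted p 0.000689). Ebp is X-linked, and without KO 7, the female sample, the log2 fold change was -1.16 (limma adjusted p 0.00275). With any 1 sample left out it was still called lower, at limma adjusted p-values of 0.00114 to 0.00349. It was not called with every gene of the table tested (limma adjusted p 0.00624). Within a library, the ratio of Ebp to Cyp51 was 0.147, 0.168 and 0.138 in WT and 0.0397, 0.0466 and 0.0505 in KO.

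Hsd17b7, a ketoreductase of the demethylation steps, was at 48.2, 40.3 and 39.2 TPM in WT and at 60.7, 56.4 and 55.4 TPM in KO. The groups did not overlap, and the log2 fold change was 0.43 (SE 0.11; limma adjusted p 0.0169). Msmo1, the methylsterol monooxygenase, was at 77.7, 72.2 and 68.1 TPM in WT and at 84.6, 87.3 and 86.0 TPM in KO, a log2 fold change of 0.24 (SE 0.09; limma adjusted p 0.0832). Sc5d, a desaturase after Ebp, was at 48.4, 48.6 and 45.3 TPM in WT and at 51.0, 52.0 and 54.1 TPM in KO. It did not overlap between groups either, but its log2 fold change was 0.14 (SE 0.09; limma adjusted p 0.285).

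The other 3 genes of the same stretch overlapped between groups. Nsdhl, the X-linked dehydrogenase that acts with Hsd17b7, had a log2 fold change of -0.20 (95% interval -0.46 to 0.06), or -0.25 without KO 7. Dhcr7, the reductase of the last double bond, had a log2 fold change of 0.10 (95% interval -0.18 to 0.38), 0.02 without KO 7 and 0.20 without KO 3. Tm7sf2, a sterol reductase, was among the lowest enzymes, at 3.78 to 4.84 TPM in WT and 3.03 to 4.34 TPM in KO, and shares 532 exon bases with the same-strand gene Vps51. The ratio of Ebp to Dhcr7 was 1.76 to 2.21 in WT and 0.714 to 0.869 in KO, and that of Ebp to Nsdhl 0.486 to 0.659 and 0.259 to 0.300. Summed TPM of all 18 enzymes was 854.7, 882.0 and 796.8 in WT 4, 5 and 8 and 1032, 1075 and 1055 in KO 3, 7 and 10.

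**Figure D3:**
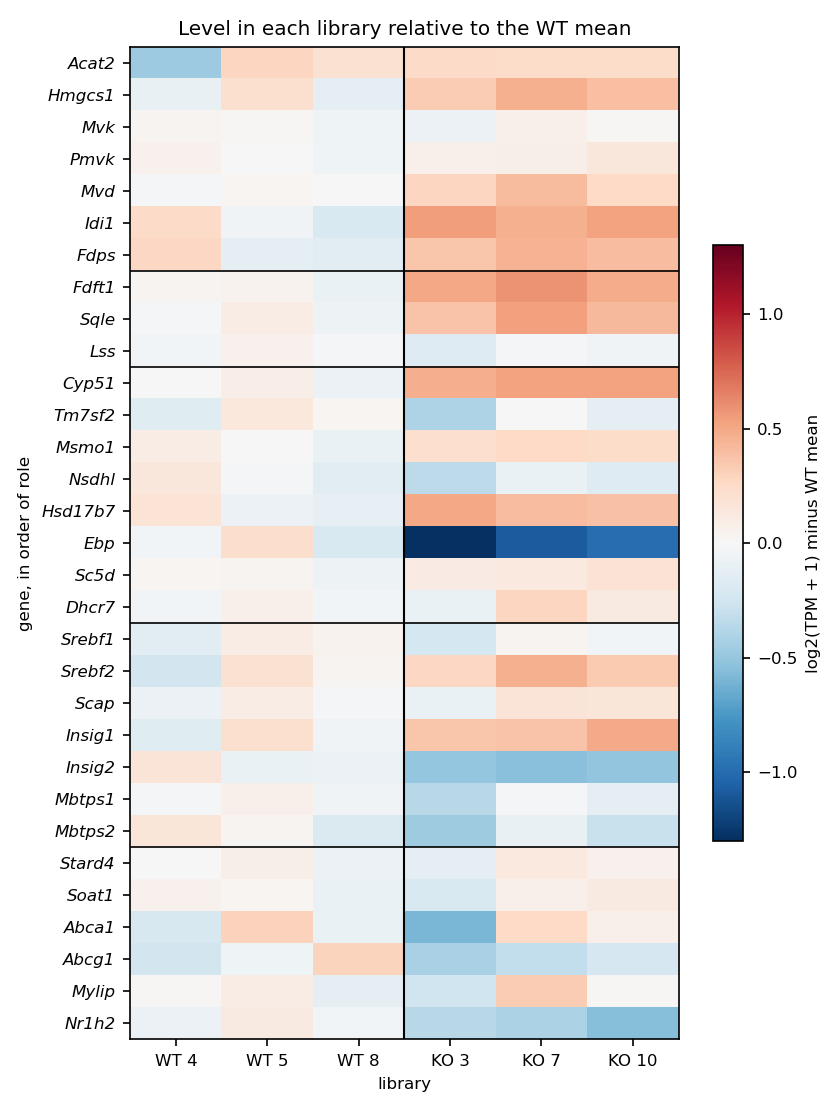
Difference of log2(TPM + 1) from the WT mean (colour scale) for each of the 31 tested genes (rows, in pathway order, with lines between roles) in each library (columns, WT left and KO right of the line). Rows from Mvd to Sqle are warm in all 3 KO columns, Ebp is the darkest blue row, and KO 3 is the coolest KO column in several rows of the lower blocks.

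Among the genes that run the SREBP switch, 0 of 7 were called by limma (at an unadjusted p under 0.05, 2 higher and 1 lower, with 12.2% and 27.2% of all tested genes, and Insig2 alone lower with voom, with 14.5%), and the 2 INSIG anchors had fold changes of opposite sign. Srebf2, the factor with most weight on cholesterol genes, was at 78.7, 107.0 and 95.3 TPM in WT 4, 5 and 8 and at 111.8, 128.0 and 117.7 TPM in KO 3, 7 and 10. The groups were apart by a small gap above WT 5, and the log2 fold change was 0.35 (SE 0.12; limma adjusted p 0.0615). Srebf1, the factor with most weight on fatty acid genes, was at 38.6, 46.0 and 44.3 TPM in WT and at 36.5, 43.9 and 41.7 TPM in KO. The groups overlapped, with a log2 fold change of -0.08 (95% interval -0.33 to 0.18, and 0.01 with median-of-ratios scaling). The ratio of Srebf2 to Srebf1 within a library was 2.04, 2.33 and 2.15 in WT and 3.06, 2.92 and 2.83 in KO, with no overlap.

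Insig1, itself a target of SREBP and so part of the feedback, was at 76.6, 98.6 and 82.6 TPM in WT 4, 5 and 8 and at 109.9, 111.0 and 120.6 TPM in KO 3, 7 and 10. All KO samples were above WT, and the log2 fold change was 0.41 (SE 0.11; limma adjusted p 0.0247). Insig2, its paralogue, which is not an SREBP target in the same way, was at 34.2, 28.5 and 28.8 TPM in WT and at 21.1, 20.5 and 21.03 TPM in KO. Its KO samples lay close together below every WT sample, and the log2 fold change of -0.52 (SE 0.11) passed the fold threshold with a limma adjusted p of 0.00648, just outside the p threshold. Insig2 was called lower with limma-voom on the recovered reads (adjusted p 0.00164), when only genes averaging 10 TPM or more were tested (limma adjusted p 0.00121) and with the 2 most abundant RNAs removed (limma adjusted p 0.00467), and was not called with any 1 sample left out (0.0134 to 0.0300). The ratio of Insig1 to Insig2 was 2.24, 3.46 and 2.87 in WT and 5.20, 5.41 and 5.73 in KO. For each of 8 such ratios computed, the exact two-sided permutation test gave 0.1, the smallest p that 3 against 3 samples allow, and the pairs were chosen with the fold changes known.

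Scap, the escort, had a log2 fold change of 0.08 (95% interval -0.18 to 0.33). The proteases that release the active factor were at 36.9 to 39.9 TPM in WT and 29.6 to 37.7 TPM in KO for Mbtps1, and at 10.2 to 13.2 TPM and 8.25 to 10.9 TPM for the X-linked Mbtps2. Both overlapped between groups, with log2 fold changes of -0.16 and -0.28 and limma adjusted p-values of 0.322 and 0.166. The value of Mbtps1 was -0.065 without KO 3, -0.235 without KO 7 and -0.076 with median-of-ratios scaling. Mbtps2 shares 2867 of its 10105 exon bases with the same-strand gene Yy2, and its log2 fold change without KO 7 was -0.37 (limma adjusted p 0.105).

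Genes of storage, movement and export of sterol showed small or imprecise differences, and 0 of 6 tested were called by limma or by voom (1, Nr1h2, lower at an unadjusted p under 0.05, with 27.2% of all tested genes). Soat1, which esterifies cholesterol for storage, had a log2 fold change of -0.01 (95% interval -0.26 to 0.24, and 0.08 with median-of-ratios scaling), and Stard4, a carrier of sterol between membranes, 0.02 (-0.22 to 0.27). The efflux pumps Abca1 and Abcg1 were low, at 2.06 to 4.68 TPM and 0.829 to 2.01 TPM over the 6 samples, with log2 fold changes of -0.09 and -0.32 and overlapping groups. The value of Abcg1 depended on the fit, at -0.54 with a pseudocount of 0.1, -0.56 with voom and -0.18 without WT 8 (95% interval in the reported fit -0.78 to 0.14), and that of Abca1 ranged from -0.27 to 0.16 with 1 sample left out. Mylip, an LXR target that marks lipoprotein receptors for degradation, had a log2 fold change of 0.03 (95% interval -0.33 to 0.39). Nr1h2, the LXR present in most tissues, stood apart from these, at 30.2, 34.6 and 31.0 TPM in WT 4, 5 and 8 and at 24.6, 23.7 and 21.4 TPM in KO 3, 7 and 10. All KO samples were below WT, and the log2 fold change was -0.44 (SE 0.11; limma adjusted p 0.0131). Nr1h3, the other LXR, was at 0.294 to 0.419 TPM in WT and 0.109 to 0.223 TPM in KO, on 2 to 10 reads per sample, and was not tested.

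**Figure D4:**
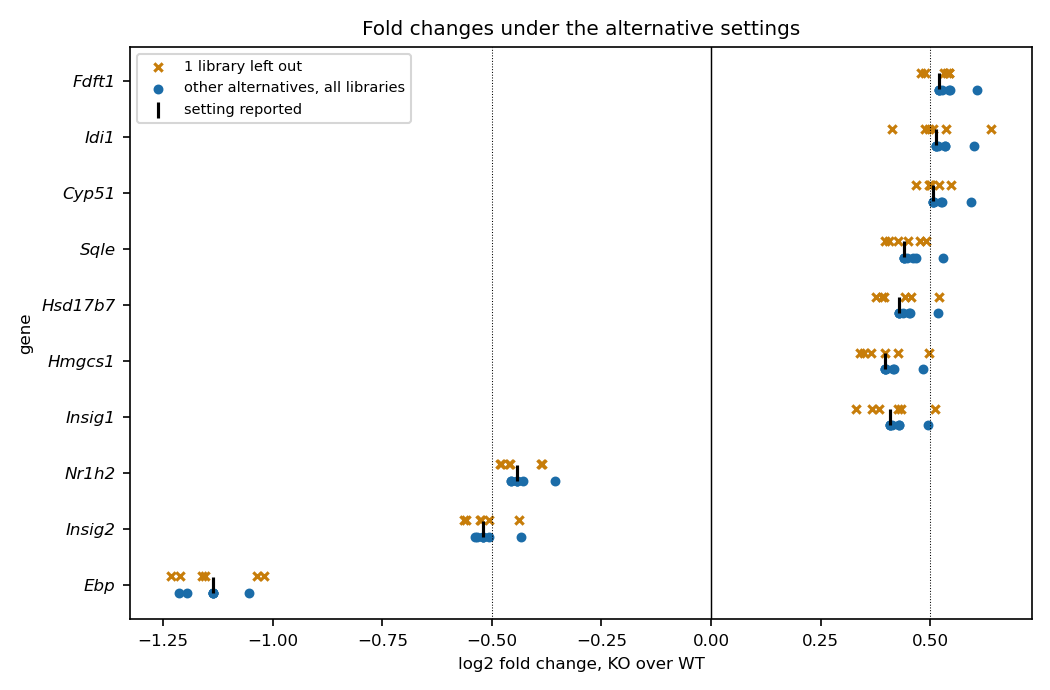
Log2 fold change of KO over WT (x axis) of 10 genes (y axis) under the reported setting (black bar), the alternatives that keep all libraries (blue points) and the fits with 1 library left out (orange crosses). Dotted lines mark 0.5 and -0.5, and Ebp stays below -1.0 in every fit. Fdft1, Idi1, Cyp51, Sqle, Hsd17b7 and Insig1 have values on both sides of 0.5, and Insig2 on both sides of -0.5. Hmgcs1 and Nr1h2 stay between the dotted lines.

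Genes around the pathway were described through 4 further lists. Of 17 tested fatty acid and lipid genes under SREBP, 0 rose and 1 fell (1.64% and 9.03% of all tested genes), Gpam, the acyltransferase that starts glycerolipid synthesis, at 11.1 ± 0.724 TPM in WT and 4.43 ± 0.958 TPM in KO (SD, n = 3; log2 fold change -1.17, limma adjusted p 0.000784). The median of that list was 0.00, and in 4 genes all KO samples lay above WT (13.3% of all tested genes) and in 4 below (29.9%). Of 17 tested genes of the isoprenoid branch and prenylation, which draws on the same farnesyl units, 0 rose and 4 fell, with 9.03% of all tested genes called lower. In 8 all KO samples lay below WT, as in 29.9% of all tested genes, in 2, Srd5a3 and Trit1, they lay above, as in 13.3%, and the list median was -0.26, against -0.07 over all tested genes. Dhdds, a subunit of the enzyme that builds dolichol chains, fell from 22.6 ± 2.42 to 7.15 ± 0.709 TPM (SD, n = 3; log2 fold change -1.53, limma adjusted p 0.000151), and Pdss2, Zmpste24 and Rabggta fell by 0.92, 0.89 and 0.81 on the log2 scale.

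Of 22 tested genes of other sterol handling, 0 rose and 2 fell, close to the 9.03% of all tested genes, with a median of -0.06 beside -0.07 over all tested genes. These were Lipa, the lysosomal acid lipase that frees cholesterol from taken-up esters, at 20.3 ± 1.59 TPM in WT and 11.2 ± 1.36 TPM in KO (SD, n = 3; log2 fold change -0.81, limma adjusted p 0.00157), and Stard3, a sterol carrier of late endosomes (log2 fold change -0.64, limma adjusted p 0.00288). Among genes of sterol-regulated degradation in the endoplasmic reticulum, Erlin2, a membrane protein that takes part in such degradation, fell by 0.69 on the log2 scale (limma adjusted p 0.00226). Of the 70 tested genes of the 4 lists, 0 were called higher and 9 lower by limma, and 10 were higher and 17 lower at an unadjusted p under 0.05, where 12.2% and 27.2% of all tested genes were. With voom 2 of the 70 were called higher, Lpin1 and Gramd1a, and 11 lower, beside 2.93% and 14.5% of all tested genes.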

How the data were processed

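Bulk RNA of 6 MEF samples was measured, 3 WT and 3 KO, grouped by the sample titles. The authors deposited expression as TPM, 1 column per sample, each scaled to the same total. The study's methods name STAR, mm10 and DESeq2 and the submitters' processing notes Bowtie 0.12.2, and the counting program is not given in the sources used here. Libraries came from an NEBNext Ultra kit, which does not mark strand. The deposited table also holds the authors' log2 fold changes and adjusted p-values, which were not used. Per the labels the medium held 10% serum, and the study's general methods give more.

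Because TPM values are not counts, DESeq2 and edgeR were not run, and genes were compared with limma 3.58.1 (R 4.3.3) on log2(TPM + 1), with a 2-group design, a trend of variance on level and Benjamini-Hochberg adjustment, a scale that understates changes of low genes. Genes with a group mean under 1 TPM in both groups were left out. Genes were called at an adjusted p under 0.005 where the log2 fold change exceeded 0.5 or was under -0.5, the study's thresholds. The fit was run on simulated reads with the same variability setting for every gene and changes larger than those of the higher sterol genes. That run does not show how the fit performs on these data. TPM multiplied by GENCODE M21 exon length gave whole reads for 100% of values checked up to 1000 reads (tolerance 0.05), used for depth and for voom. Near-identical copies were searched with blastn 2.17.0. All 26898 gene identifiers matched GENCODE M21, which gave positions on mm10. The study describes its samples as separate mice, and p-values measure the spread between these samples.

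The genes and lists were chosen with earlier results of these data known. All 32 genes are named, and of every other list its called genes, at most 4 (1 item is not reported here), with Lpin1, Gramd1a, Srd5a3 and Trit1 named after their values were seen. Alternatives were another pseudocount, other filters, thresholds and scalings, no variance trend, voom, and leaving out each sample.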

Additional observations from a re-analysis of the deposited data

How the results depend on the processing

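A group size of 3 limits the precision, and a few genes, such as Abcg1 (44 to 139 reads per sample), had low reads. No paired analysis was possible because replicate numbers differ throughout (4, 5 and 8 in WT, 3, 7 and 10 in KO). A pseudocount of 0.1 and no fold threshold gave the same 2 higher and 1 lower sterol genes. Over all tested genes these settings called 221 and 245 higher and 1278 and 1338 lower.

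With every gene tested, 0 sterol genes were higher and 0 lower, among 55 and 286 in all, a fit over more genes. With no variance trend 0 were higher and 1, Ebp, lower, among 187 and 1149 in all. A filter of at least 10 TPM on average left 26 sterol genes to test. It gave 3 higher (Idi1 added) and 2 lower (Insig2 added), among 289 and 941 in all. An adjusted p under 0.05 added the same 2 genes, with 694 higher and 2453 lower in all, and without a fold threshold 1057 and 3057. Limma-voom also added these 2, with 433 and 2152 in all. Median-of-ratios scaling added Sqle to the higher genes (442 higher and 1498 lower in all). Removing the 2 most abundant RNAs gave 2 lower, Ebp and Insig2, among 301 higher and 1759 lower genes in all. With 1 sample left out, 0 to 1 sterol genes were higher and 1, Ebp, lower, among 84 to 252 higher and 617 to 938 lower genes in all. Without WT 4 the single higher gene was Idi1, and without any other sample there was none.

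Genes near 0 changed sign. Under median-of-ratios scaling the log2 fold change was 0.003 for Lss, 0.010 for Srebf1 and 0.079 for Soat1, and Soat1 was at 0.010 without the 2 most abundant RNAs and at 0.012 with voom. With 1 sample left out it ranged from -0.029 to 0.043 for Mvk, -0.030 to 0.094 for Stard4, -0.071 to 0.088 for Soat1, -0.265 to 0.163 for Abca1 and -0.123 to 0.175 for Mylip. The other 24 of the 31 tested sterol genes kept their sign under these settings. Apart from what these settings define (samples or genes tested), the cause of each shift was not tested.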
